A study of Mus musculus with 4 samples.

Results

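The 10 genes described here encode the estrogen-related receptors (ERRs) and the proteins that switch them up or down. They are the receptors Esrrg, Esrra and Esrrb, the coactivators Ppargc1a, Ppargc1b, Pprc1 and Perm1, and the corepressors Nrip1, Nr0b1 and Nr0b2. They were taken by symbol from the 23282 rows of each count table, and each of the 10 had 1 row. The cells were primary pancreatic acinar cells of C57BL/6J mice, kept in Waymouth's medium with 2.5% serum and 25 ng/ml epidermal growth factor. Both groups carried an adenovirus for 36 h at a multiplicity of infection of 100, which encoded ERRγ (the product of Esrrg) in 2 libraries and green fluorescent protein (GFP) in the other 2. The promoter of the constructs, the age and sex of the mice and any pooling of animals were not given in the sources used here, nor do the labels say that the libraries of a group were separate cultures. The p-values therefore measure the spread between these libraries, which may be technical.

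ERRs are orphan nuclear receptors: no natural hormone is established for them, and their activity follows the cofactors that bind them. PGC-1α and PGC-1β (Ppargc1a, Ppargc1b) and the related protein PRC (Pprc1) dock on the receptors and recruit the machinery that turns on genes of mitochondrial respiration, and PERM1 acts with them in muscle. RIP140 (Nrip1) recruits repressors to the same surface, and SHP (Nr0b2) and DAX-1 (Nr0b1), which are receptors with no DNA-binding domain of the usual kind, silence other nuclear receptors by binding them. ERRγ is known in acinar cells and in other cells of high energy demand as a regulator of mitochondrial genes, and ERRs are known to act on Nr0b2.

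The libraries held 10105604 to 11012351 counts of transcript ends, and the 2 libraries of a group differed by more than counting error (chi-square per degree of freedom of 24.1 in the ERRγ pair and 15 in the GFP pair). Levels are given in CPM, the gene's counts per 1e+06 counts of the TMM-scaled library. In bulk RNA, fewer cells of a type and less RNA per cell cannot be told apart. Acinar markers were low in cells labelled acinar: 15 of them summed to 52.3 to 120 CPM, Ptf1a had no count, and 7 ductal markers took 2390 and 2890 CPM with ERRγ and 3230 and 3130 CPM with GFP, without overlap. The part of the ductal difference in the results was not tested. Of these ductal markers 1 rose (Cftr) and 2 fell (Krt7 and Muc1), and of the acinar markers Prss2 alone rose. Over all 13070 rows tested, 5.06% rose and 1.78% fell. Summed levels overlapped between the groups for the islet (12.4 and 41.3 CPM with ERRγ, 24.7 and 173 CPM with GFP), endothelial, immune and fibroblast lists. Intervals of shares and of ratios between libraries, and floors, cover counting error only. Intervals of log2 fold changes come from the edgeR fit and include the spread between libraries.

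Upstream sequence is shown for the 3 genes that went from no count to detection, and for Perm1, which held the single strict match described next. The lines below give up to 250 bases before each RefSeq start, 5′ to 3′ on the gene's strand, from RefSeq on GRCm38.p6, cut where a GENCODE exon begins. For Perm1 the last base printed lies 60 bases before the RefSeq start, and for Nr0b1 12 bases before it. Capitals mark AAGGNCA, a loose form of the core of the estrogen-related receptor element, on either strand.
Nr0b2, chr4:133553126-133553375: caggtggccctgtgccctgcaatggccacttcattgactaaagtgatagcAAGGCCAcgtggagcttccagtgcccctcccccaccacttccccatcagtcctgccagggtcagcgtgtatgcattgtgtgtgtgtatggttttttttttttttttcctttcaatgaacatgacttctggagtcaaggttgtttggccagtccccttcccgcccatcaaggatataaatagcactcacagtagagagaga
Nr0b1, chrX:86191525-86191763: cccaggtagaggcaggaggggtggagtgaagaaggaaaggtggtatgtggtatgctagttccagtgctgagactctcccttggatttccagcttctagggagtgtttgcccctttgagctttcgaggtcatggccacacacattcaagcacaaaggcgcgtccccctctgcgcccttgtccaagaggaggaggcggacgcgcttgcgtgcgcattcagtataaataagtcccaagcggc
Esrrb, first start, chr12:86360867-86361116: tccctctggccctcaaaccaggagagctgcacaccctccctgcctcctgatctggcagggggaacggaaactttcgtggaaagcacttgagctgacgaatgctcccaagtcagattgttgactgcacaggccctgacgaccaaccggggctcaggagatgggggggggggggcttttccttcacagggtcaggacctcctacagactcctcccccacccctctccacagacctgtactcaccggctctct
Esrrb, second start, chr12:86421394-86421643: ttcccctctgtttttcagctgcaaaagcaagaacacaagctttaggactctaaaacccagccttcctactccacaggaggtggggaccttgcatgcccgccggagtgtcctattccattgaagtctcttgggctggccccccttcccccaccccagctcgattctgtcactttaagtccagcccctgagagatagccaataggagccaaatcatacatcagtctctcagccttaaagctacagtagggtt
Perm1, chr4:156215677-156215867: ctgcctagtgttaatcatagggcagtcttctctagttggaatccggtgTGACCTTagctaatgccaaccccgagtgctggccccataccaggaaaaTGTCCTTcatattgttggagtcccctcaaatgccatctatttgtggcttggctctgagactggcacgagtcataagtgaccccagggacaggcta

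The full element TNAAGGTCA lay in none of the 14 windows of 250 bases available for 9 of the 10 genes, and in 1.14% of the 32851 windows of all genes. The core AAGGTCA lay in 1 of the 14, that of Perm1 (202 bases before the RefSeq start, from which all these distances are counted, on the opposite strand), against 4.08% of all windows. The looser AAGGNCA, which includes every AAGGTCA and was tried after the strict forms gave 1 match, lay in 3 of 14 windows: Perm1 (202 and 154 bases upstream), Nr0b2 (200 bases) and Pprc1 (38 bases), against 17.5% of all windows. Both strands were searched. As a description of the whole table, AAGGTCA lay upstream of 33 of the 507 genes called higher with ERRγ that had a window (6.51%), of 4 of 173 called lower (2.31%) and of 326 of 9188 not called (3.55%). The full element TNAAGGTCA had another order, with 5 of 507 (0.986%), 3 of 173 (1.73%) and 78 of 9188 (0.849%), and its counts in the called genes were small. AAGGNCA lay in 21.9%, 15.6% and 17.0% of the same sets.

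The single comparison asks how these genes differ when ERRγ is overexpressed. Of the 10 genes, 4 rose with ERRγ: the receptor genes Esrrg and Esrrb and the corepressor genes Nr0b1 and Nr0b2. None of the coactivator genes rose, and none of the 10 fell. Ppargc1a was too low to test, so 4 of 9 tested genes passed edgeR's quasi-likelihood test at an adjusted p under 0.05, where 6.84% of all 13070 rows tested did and 5.06% did so upward. For the count of 0 falls, the background was 1.78%, 1 gene (Pprc1) had an unadjusted p under 0.05, and DESeq2 and limma-voom also gave 0. The rise of Esrrg is that of the gene the virus carried. The other 3 risen genes had no count with GFP and entered the test only through their ERRγ libraries, so they had to differ. Among all rows tested, 0.222% had no count in either GFP library, and 27 of those 29 rows were called higher.

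**Figure D1:**
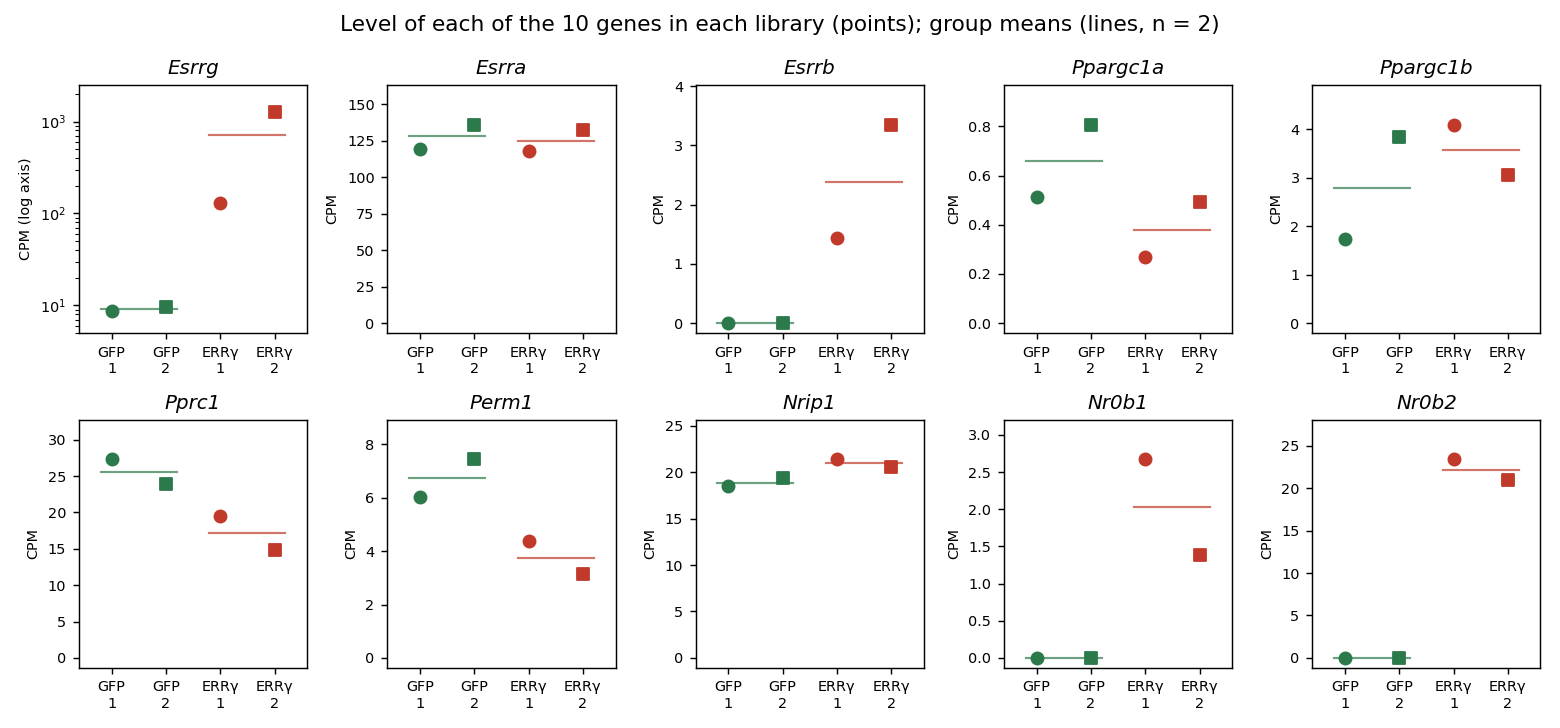
CPM of the 10 genes in each library, with circles for library 1, squares for library 2 and a line at each group's mean (n = 2). Esrrg is on a log axis and the other axes start at 0. Esrrb, Nr0b1 and Nr0b2 sit at 0 in both GFP libraries, Esrrg is spread from 129 to 1280 CPM with ERRγ, and Esrra overlaps between the groups.

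Esrrg (chromosome 1, 187608791 to 188214885, plus strand, GRCm38) had 1453 and 12994 counts in ERRγ libraries 1 and 2 and 86 and 107 in GFP libraries 1 and 2. These are 129, 1280, 8.79 and 9.59 CPM, and the groups lay far apart although the ERRγ libraries differed from each other. The group means were 706 ± 815 and 9.19 ± 0.568 CPM (SD, n = 2), a log2 fold change of 6.26 (SE 1.00, 95% interval 3.95 to 8.57, edgeR adjusted p = 0.0109). The size of the change depended on the library: it was 3.81 without ERRγ library 2 and 7.12 without ERRγ library 1. A transgene is counted here only where its transcript maps to the Esrrg row, and a transcript-end read may miss it, so the level of the introduced transcript may be understated.

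Esrra (chromosome 19, 6910977 to 6921813, minus strand), the widely expressed ERR that is a known target of its own family, gave 1329 and 1341 counts in the ERRγ libraries, against 1166 and 1518 in the GFP libraries. These levels overlapped, at 118 and 132 CPM against 119 and 136 CPM. Its log2 fold change was −0.03 (SE 0.14, 95% interval −0.35 to 0.30, edgeR adjusted p = 0.939), so that the interval for the fold runs from 0.784 to 1.23. The sign was not stable: it was 0.05 without ERRγ library 1 and 0.07 without GFP library 2. Esrra overlaps Trmt112 on the opposite strand, which had 1126 to 1597 counts and a log2 fold change of −0.31 (adjusted p = 0.242), and the use of strand in counting is not given in the sources used here. Part of either gene's counts may therefore belong to the other.

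Esrrb (chromosome 12, 86361117 to 86521628, plus strand), known for its role in pluripotent and trophoblast stem cells, was counted 16 and 34 times in the ERRγ libraries and in neither GFP library. Its level was 1.43 and 3.35 CPM, so the higher value came in the library with more Esrrg. Its mean with ERRγ was 8.31 times a floor of 3 counts in each GFP library, with no allowance for spread between the ERRγ libraries. It rose at an edgeR adjusted p of 0.0255. No annotated gene overlaps it, and its nearest coding neighbours Gpatch2l and Vash1 had log2 fold changes of 0.17 (adjusted p = 0.778) and −0.00 (adjusted p = 0.997).

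The make-up of the summed receptor counts differed between the groups and between the ERRγ libraries. With transcript-end reads each transcript is read near its end whatever its length. Counts of different genes were therefore set side by side without dividing by length. The transcript from the virus may be missed where its end does not map to the Esrrg row. The Esrrg shares in the ERRγ libraries may thus be understated, which their intervals do not cover. Esrrg made up 6.87% of the summed counts in GFP library 1 (exact binomial 95% interval, 5.53 to 8.41) and 6.58% in GFP library 2 (5.43 to 7.90), where nearly all the rest was Esrra. In ERRγ library 1 Esrrg held 51.9% (50.1 to 53.8) and Esrra 47.5% (45.6 to 49.4). In ERRγ library 2 Esrrg held 90.4% (89.9 to 90.9) and Esrra 9.33% (8.86 to 9.82). Esrrb held 0.572% and 0.237% in ERRγ libraries 1 and 2, and it had no count in the GFP libraries, where the floor of 3 counts stands at 0.240% and 0.185% and the exact interval reaches 0.294% and 0.227%. The share in ERRγ library 2 lies under the floor of GFP library 1.

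**Figure D2:**
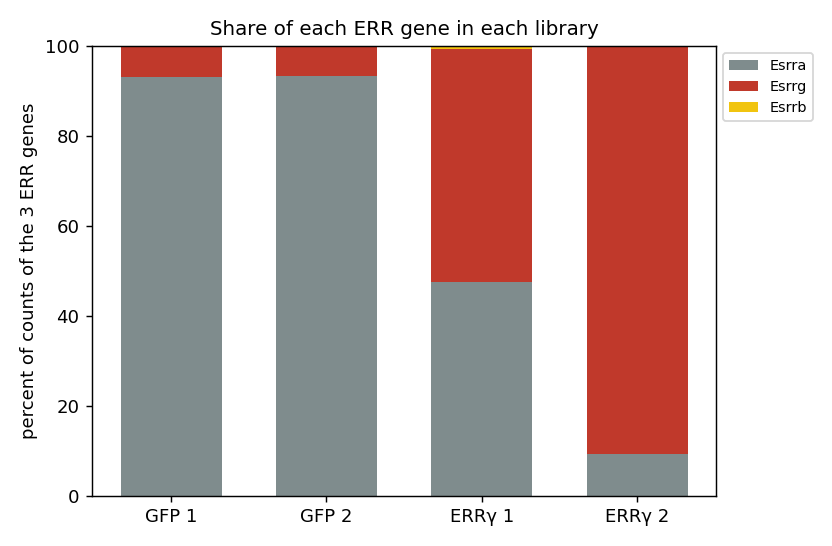
Percent of the summed counts of Esrra, Esrrg and Esrrb that each gene held in each of the 4 libraries. Esrra leads in both GFP libraries, the libraries with ERRγ differ from each other (51.9% and 90.4% Esrrg), and Esrrb is a thin band at the top. Reads of the transcript from the virus may miss the Esrrg row, so its share with ERRγ may be understated.

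None of the 4 coactivator genes passed the test. Ppargc1a (chromosome 5, 51454250 to 51567726, minus strand), the inducible coactivator that drives mitochondrial biogenesis in muscle, brown fat and liver, was close to absent in both groups. It gave 3 and 5 counts in the ERRγ libraries, against 5 and 9 in the GFP libraries, which is 0.267 and 0.493 CPM against 0.511 and 0.807 CPM. The floor of 3 counts corresponds to 0.267 to 0.307 CPM, so a difference of this size was not detectable at this depth, and the gene fell below the filter of the test. Fitted with no filter, its log2 fold change was −0.80 (edgeR adjusted p = 0.789).

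Ppargc1b (chromosome 18, 61298136 to 61400431, minus strand), the sister coactivator, gave 46 and 31 counts in the ERRγ libraries, against 17 and 43 in the GFP libraries. The groups overlapped, at 4.10 and 3.06 CPM against 1.74 and 3.85 CPM. The log2 fold change was 0.35 (SE 0.52, 95% interval −0.85 to 1.55, edgeR adjusted p = 0.741). GFP library 1 carried most of it: without that library the log2 fold change was −0.11, and without GFP library 2 it was 1.04.

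Pprc1 (chromosome 19, 46044886 to 46072915, plus strand), the serum-induced member of the PGC-1 family, gave 219 and 150 counts in the ERRγ libraries and 267 in each GFP library. Both ERRγ values (19.5 and 14.8 CPM) lay below both GFP values (27.3 and 23.9 CPM). The group means were 17.2 ± 3.33 and 25.6 ± 2.37 CPM (SD, n = 2), a log2 fold change of −0.58 (SE 0.21, 95% interval −1.06 to −0.09), with an unadjusted p of 0.0266 and an edgeR adjusted p of 0.155. It passed in a single alternative, without ERRγ library 1 (log2 fold change −0.79, adjusted p = 0.0155). Its row overlaps Ldb1 on the opposite strand, which had 745 to 1250 counts and a log2 fold change of −0.46 (adjusted p = 0.114).

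Perm1 (chromosome 4, 156215868 to 156221307, plus strand), a PGC-1- and ERR-induced regulator of muscle, gave 49 and 32 counts in the ERRγ libraries, against 59 and 83 in the GFP libraries. At 4.37 and 3.16 CPM against 6.03 and 7.44 CPM, the ERRγ libraries were the lower ones and the groups did not overlap. The log2 fold change was −0.84 (SE 0.37, 95% interval −1.69 to 0.02, edgeR adjusted p = 0.226). The coding gene Plekhn1 lies 149 bases beyond the end of Perm1 on the opposite strand, so that their transcript ends face each other. Plekhn1 gave 158 and 133 counts in the ERRγ libraries, against 269 and 352 in the GFP libraries and fell (log2 fold change −1.12, adjusted p = 0.0143; 0.112 and 0.149 without GFP libraries 1 and 2). Reads that run past the end of either gene could be counted to the other, and the part of this in the Perm1 values was not tested. A list of 6 heart and skeletal muscle markers summed to less with ERRγ (92.0 and 77.7 CPM) than with GFP (176 and 133 CPM). That difference lay in Acta1, which averaged 54.7 CPM with ERRγ and 132 CPM with GFP. Tnnt2 went the other way (30.1 and 22.2 CPM). Myh6, Myl2 and Mb had no count in any library. Of the 2 markers tested, Acta1 fell (log2 fold change −1.27, adjusted p = 0.0137) and Tnnt2 stood at 0.44 (adjusted p = 0.200).

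Of the 3 corepressor genes, 2 went from no count to detection and the third did not pass the test. Nr0b2 (chromosome 4, 133553376 to 133556536, plus strand), which encodes SHP, the bile-acid-induced corepressor of liver, was counted 263 and 213 times in the ERRγ libraries and in neither GFP library. The 2 ERRγ libraries were alike at 23.4 and 21 CPM (22.2 ± 1.71, SD, n = 2), closer than for the other 3 risen genes. Nr0b2 averaged 77.2 times the floor with ERRγ (edgeR adjusted p = 0.000352 for the rise, rank 21 of 13070 by p). The call held in all 12 alternatives, with the highest adjusted p at 0.00848, without GFP library 1. No annotated gene overlaps it, and the neighbours Nudc (log2 fold change 0.15, adjusted p = 0.559) and Gpatch3 (0.28, adjusted p = 0.753) did not pass.

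SHP is known above all from hepatocytes. The 8 hepatocyte markers summed to 57.7 and 181 CPM with ERRγ and 92.7 and 24.7 CPM with GFP, so the groups overlapped. None of the 7 tested passed, but all 7 had a higher mean with ERRγ (log2 fold changes 0.75 to 2.14, median 1.10). Of the 7, 2 had an unadjusted p under 0.05 in edgeR, as did 3017 of all 13070 rows tested. ERRγ library 1 held less of these markers than GFP library 1, and ERRγ library 2 held more than either GFP library. The part of hepatocytes in the Nr0b2 values was not tested.

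Nr0b1 (chromosome X, 86191764 to 86195947, plus strand), which encodes DAX-1, a corepressor of adrenal and gonadal development that is also made in embryonic stem cells, was counted 30 and 14 times in the ERRγ libraries and in neither GFP library. Its level was 2.67 and 1.38 CPM, the higher value being in the library with less Esrrg. It averaged 7.05 times the floor with ERRγ, again with no allowance for spread between the ERRγ libraries (edgeR adjusted p = 0.0264 for the rise). No annotated gene overlaps Nr0b1, and its neighbours Samt3 and Mageb4 had 0 and 1 counts over the 4 libraries.

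Since Esrrb and Nr0b1 are known from trophoblast, embryonic and steroid-producing cells, markers of these were examined. The 8 trophoblast markers summed to 51.9 and 33.2 CPM with ERRγ and 7.56 and 5.29 CPM with GFP. Of 5 tested, 2 rose, Prl3d1 (405 and 186 counts against 1 and 2) and Tfap2c (32 and 38 against none). Over all rows tested 5.06% were called higher, the background for each list here. Prl3d1 averaged 27.2 CPM with ERRγ and 0.141 CPM with GFP, the largest part of the sum with ERRγ. Of the other 3 tested, Eomes stood at a log2 fold change of 2.47 (adjusted p = 0.0700), Elf5 at −0.02 (adjusted p = 0.992) and Prl2c2 at −0.21 (adjusted p = 0.852). Gcm1 had no count and Cdx2 had 0 to 3 counts. Among 6 pluripotency markers, a list chosen after the values of Esrrb and Nr0b1 were seen, 1 of 3 tested passed: Dppa3 rose (34 and 46 counts against none, adjusted p = 0.00957). In that list Pou5f1 stood at a log2 fold change of −0.47 (adjusted p = 0.706) and Nanog at 1.06 (adjusted p = 0.365), Sox2 had at most 5 counts in a library, and Zfp42 and Tdgf1 had none. Of 5 genes of steroid-producing cells, also chosen afterwards, 1 of 3 tested passed: Hsd3b1 rose (65 and 41 counts against none), Star and Cyp11a1 stood at −0.18 and −0.05, and Nr5a1 had at most 4 counts. Tfap2c, Dppa3 and Hsd3b1 had no GFP count, and Prl3d1 had 1 and 2. These genes entered the test only through ERRγ, so they had to differ. The part of these cell types in the values of Esrrb and Nr0b1 was not tested.

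Nrip1 (chromosome 16, 76287400 to 76373827, minus strand), which encodes RIP140, a corepressor of oxidative genes in fat and muscle, gave 240 and 209 counts in the ERRγ libraries, against 181 and 216 in the GFP libraries. Its levels did not overlap but were close, at 21.4 and 20.6 CPM against 18.5 and 19.4 CPM. The log2 fold change was 0.15 (SE 0.19, 95% interval −0.28 to 0.58, edgeR adjusted p = 0.688). Groups without overlap are common in this design: they were found for 7 of the 9 tested genes and for 54.0% of all rows tested.

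**Figure D3:**
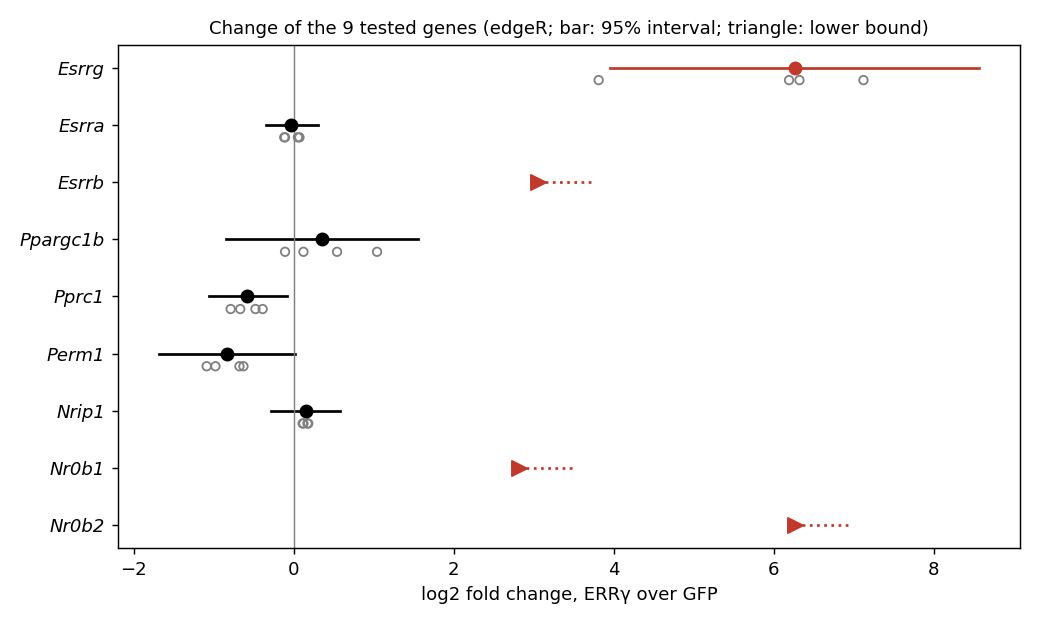
Log2 fold change of the 9 tested genes, ERRγ over GFP, with its 95% interval; red marks an adjusted p under 0.05. Triangles, for genes with no count with GFP, are the mean with ERRγ over the floor, a bound on the GFP side only. Open grey circles are fits without 1 library. The intervals of Esrra, Ppargc1b, Perm1 and Nrip1 include 0, and that of Pprc1 ends at −0.09.

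The calls of Esrrg, Esrrb and Nr0b1 ended when either GFP library was left out (adjusted p of 0.167 and 0.127 for Esrrg, 0.193 and 0.159 for Esrrb, and 0.200 and 0.169 for Nr0b1, without GFP libraries 1 and 2). With either GFP library gone, the within-group spread rests on the 2 ERRγ libraries. That for Esrrg also ended with limma-voom (log2 fold change 5.46, adjusted p = 0.0623). Over the 9 tested genes the median log2 fold change was 0.35, against −0.01 for all rows tested. It was also 0.35 with the 3 genes that had no GFP count at their ratios to the floor. The 9 were not a neutral sample, since 3 of them passed the filter only through ERRγ.

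The 2 ERRγ libraries offer a side-by-side view at unlike levels of Esrrg. Library 2 held 9.90 times the CPM of Esrrg in library 1 (exact 95% counting interval 9.38 to 10.5), a log2 ratio of 3.31 that 25 of 13041 tested genes, Esrrg included, reached. Between these libraries Esrrb was higher in library 2 (log2 ratio 1.23, 0.34 to 2.19), Nr0b2 was close to even (−0.16, −0.42 to 0.11) and Nr0b1 was higher in library 1 (−0.95, −1.98 to 0.01). On library totals alone both intervals exclude 0, with Nr0b2 at −0.33 (−0.59 to −0.06) and Nr0b1 at −1.12 (−2.15 to −0.16). The coactivator genes Ppargc1b (−0.42), Pprc1 (−0.40) and Perm1 (−0.47) all lay lower in library 2, and the interval excluded 0 for Pprc1 (−0.71 to −0.09) and not for the other two. Ppargc1a, at 3 and 5 counts, had a ratio of 0.88 (−1.48 to 3.57). Each side is 1 library, so these ratios compare libraries and not doses. Over all tested genes the same ratio ran from −1.05 to 0.88 between the 5th and 95th percentiles. The 661 genes called higher had a median of 0.07 (5th to 95th percentile, −0.51 to 0.73), a set that the test picks for a small spread between libraries. The libraries differed in other genes too: the angiogenic factor gene Vegfa had 4305 and 10233 counts in ERRγ libraries 1 and 2 and 2599 and 3102 with GFP (log2 fold change 1.36, adjusted p = 0.0739). The part of such differences in the split of Esrrg was not tested.

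**Figure D4:**
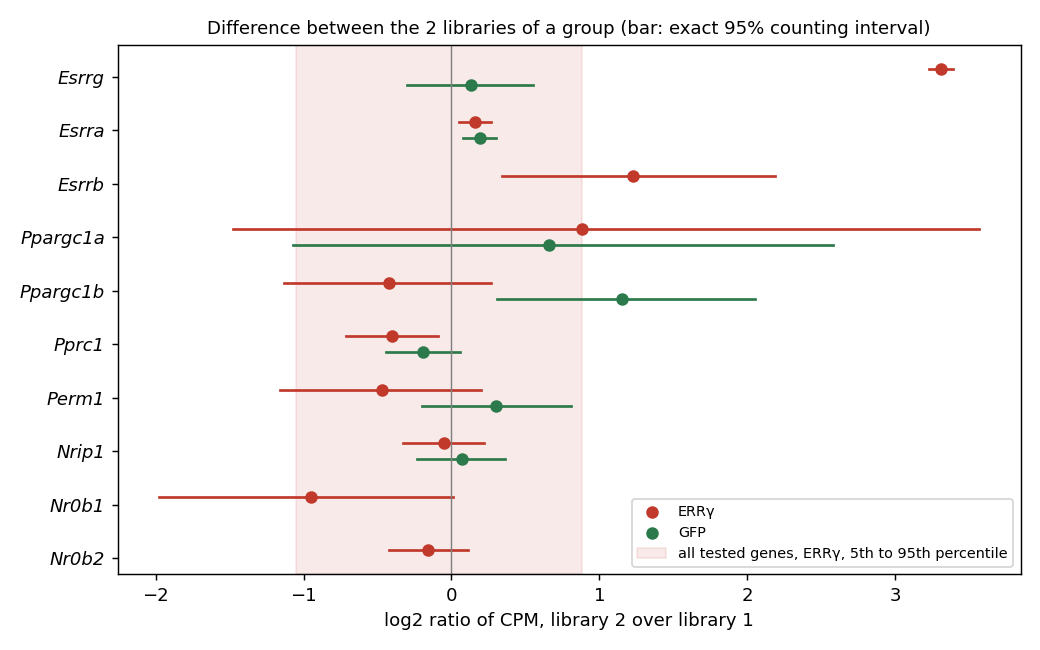
Log2 ratio of CPM in library 2 over library 1 for each gene, in the ERRγ group (red) and the GFP group (green), with exact 95% counting intervals; the shaded band runs from the 5th to the 95th percentile of all tested genes in the ERRγ group. Esrrg and Esrrb with ERRγ stand at 3.31 and 1.23, outside the band, though the interval of Esrrb reaches into it. Nr0b2 lies within the band at −0.16.

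Genes whose pattern over the 4 libraries was most like that of a risen gene were ranked by Pearson's r of log2 (CPM + 1), as a description over 4 points. Closest to Esrrg was Csrnp1, a nuclear protein gene (212 and 834 counts against 35 and 44, r = 0.99956), followed by Esrrb (0.99710), Spsb4, C430049B03Rik and Cited1. Closest to Esrrb was Spsb4 (24 and 53 counts against 1 and 1, r = 0.99998), followed by Esrrg, Tnfrsf19, Kbtbd11 and Stc2. Nr0b2 was most like Lcn4 (125 and 102 counts against none, r = 0.99999), Kcnc2, Pgm5, Paqr9 and Klra12. Nr0b1 was most like the placental lactogen gene Prl3d3 (77 and 31 counts against none, r = 0.99993), Slc35f2, Mgat4c, Sfmbt2 and Acot5. With 346 or 347 candidate genes and 4 points, these r rank the genes and carry no test.

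The wider ERR and PGC-1 machinery was described by 6 lists, and genes named to spell out a small count were chosen after their values were seen. As background for every list, 3017 of all 13070 rows tested had an unadjusted p under 0.05 in edgeR. Of the same rows, 661 were called higher and 233 lower. None of 16 coactivator and chromatin cofactor genes passed with edgeR (1 had an unadjusted p under 0.05, and DESeq2 and limma-voom also gave 0), with a median log2 fold change of 0.02. That gene was Lpin1, a phosphatidate phosphatase that also acts as a coactivator (135 and 97 counts against 53 and 51, log2 fold change 1.11, adjusted p = 0.0733). Smarca4, the ATPase of the BAF chromatin remodeller and the most abundant of the list, stood at 175 and 187 CPM on average with ERRγ and GFP (log2 fold change −0.10, adjusted p = 0.715). None of 12 corepressor complex genes passed either (edgeR; 2 unadjusted, and 0 with DESeq2 and limma-voom), with a median of −0.11. The 2 were Ctbp1 (log2 fold change −0.32, edgeR adjusted p = 0.187) and Tbl1x (−0.37, adjusted p = 0.198). Ncor1, the scaffold of the main nuclear receptor corepressor complex, stood at −0.12 (adjusted p = 0.634).

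None of 19 genes known to act on PGC-1α passed (edgeR; 3 unadjusted, and 0 with DESeq2 and limma-voom), with a median of −0.01. The 3 were Prkab2 (log2 fold change 1.12, adjusted p = 0.122) and Prkaa2 (0.76, adjusted p = 0.166), subunits of the energy sensor AMPK, and the muscle transcription factor gene Mef2a (−0.45, adjusted p = 0.155). The kinase gene Gsk3b, the most abundant, stood at −0.22 (adjusted p = 0.415). Of 11 mitochondrial biogenesis factors, Ppard, a fatty-acid-sensing nuclear receptor, fell: it averaged 32.1 ± 1.86 CPM in the ERRγ libraries and 58.5 ± 1.83 CPM in the GFP libraries (SD, n = 2; log2 fold change −0.86, adjusted p = 0.0115; 0.151 and 0.107 without GFP libraries 1 and 2). None of the 11 rose with edgeR, DESeq2 or limma-voom. In edgeR 6 of them had an unadjusted p under 0.05, and the median was 0.38. Beside Ppard these were Polrmt, the mitochondrial RNA polymerase (0.87, adjusted p = 0.0873), Tfb2m, its initiation factor (0.68, adjusted p = 0.0949), Tfam, which packages mitochondrial DNA (0.38, adjusted p = 0.201), Gabpa, a factor of nuclear-encoded respiratory genes (0.71, adjusted p = 0.166), and Pparg, the fat cell receptor (1.42, adjusted p = 0.160). Yy1, the most abundant of the list, stood at −0.08 (adjusted p = 0.773).

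Of 12 regulators of Nr0b2 and bile acid genes, 6 could be tested and none passed with edgeR (2 unadjusted, 0 with DESeq2, 1 with limma-voom), with a median of −0.35. Nr1h4, the bile acid receptor FXR that induces Nr0b2 in liver, gave 5 and 7 counts in the ERRγ libraries, against 6 and 3 in the GFP libraries. Nr5a2, its partner at that promoter, stood at −0.44 (adjusted p = 0.557) and Hnf4a at −0.41 (adjusted p = 0.558). Nr1h2, an oxysterol receptor and the most abundant, stood at −0.28 (adjusted p = 0.317). Fgf15, another FXR target, had 13 counts in each ERRγ library and 1 and 0 with GFP (edgeR adjusted p = 0.0615). Beside Fgf15, the gene with an unadjusted p under 0.05 was Rxra (log2 fold change −0.48, edgeR adjusted p = 0.215). Cyp7a1, the bile acid synthesis enzyme that SHP represses in liver, had no count in any library.

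Of 20 textbook ERR targets, 17 could be tested. With edgeR 7 rose and 1 fell, where 5.06% and 1.78% of all rows tested did, and the median was 0.69. The 4 with the smallest p were Idh3a, a subunit of isocitrate dehydrogenase (log2 fold change 1.73, adjusted p = 0.000526), Ldhb, a lactate dehydrogenase subunit (2.37, adjusted p = 0.00531), Cycs, cytochrome c (0.90, adjusted p = 0.00865), and Cs, citrate synthase (0.91, adjusted p = 0.00865). Pdk4, an inhibitor of pyruvate dehydrogenase and a PGC-1α and ERR target in muscle, was the gene that fell (−0.99, adjusted p = 0.0238). Without GFP library 1 the list had 2 rises and no fall, and without GFP library 2 it had 1 rise and no fall. Without ERRγ library 1 it had 11 rises. Of the genes that rose, Idh3a passed without any single library.

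**Figure D5:**
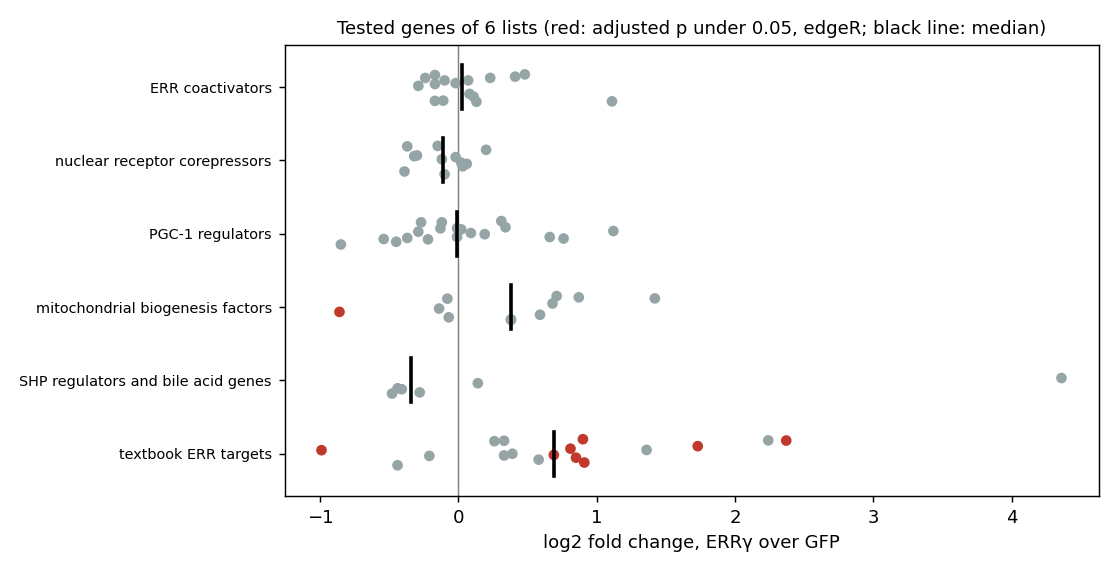
Log2 fold change, ERRγ over GFP, of each tested gene of 6 lists around the ERR receptors; red points passed at an adjusted p under 0.05 and black lines are list medians. The cofactor lists centre near 0 (medians 0.02, −0.11 and −0.01). The textbook target list has its median at 0.69 with 8 red points, where 6.84% of all rows tested passed.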

How the data were processed

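Transcript-end libraries (Lexogen QuantSeq, 500 ng total RNA) were made from 4 samples. The deposited tables hold raw read counts per gene symbol, per the file headers and values. The authors used Bowtie2, edgeR and mm10, per the submitters' processing notes. Their versions, read counter, annotation, strand setting and filters were not given in the sources used here. Totals were 10105604 to 11012351 counts, and 3 counts are 0.267 to 0.307 CPM.

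Counts were fitted in R 4.3.3 with edgeR 4.0.16 (filterByExpr, minimum count 10; TMM; glmQLFit and glmQLFTest, group alone, all 4 libraries, 2 residual degrees of freedom). Benjamini-Hochberg adjustment ran over 13070 rows, threshold 0.05, two-sided; the SE is the log2 fold change over the square root of F. DESeq2 1.42.0 and limma 3.58.1 were alternatives. The fit was tested on simulated counts. Genes and lists were chosen with earlier results of these data known. All 10 genes were named; of each list, called genes, the 4 smallest p, or, where none was called, the most abundant. Other genes named from lists, markers, neighbours and Vegfa were chosen for description after their values were seen. For patterns, the 5 highest correlations were named among genes spanning at least 2 on the log2 scale. Positions are from GENCODE M21 (GRCm38, the assembly behind mm10) by symbol, and sequences from RefSeq; Ppargc1b was not matched.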

Additional observations from a re-analysis of the deposited data

How the results depend on the processing

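Nr0b2 kept its call in every alternative, and Esrrg, Esrrb and Nr0b1 kept theirs under other scalings, with no filter and with DESeq2. Esrrg missed the threshold with limma-voom (log2 fold change 5.46). With at least 5 CPM in 2 libraries 2 of the genes were called higher, since Esrrb and Nr0b1 are below that level. With 1 library left out, 1 to 4 were called higher and 0 to 1 lower; log2 fold changes ran from 3.81 to 7.12 for Esrrg, −0.12 to 0.07 for Esrra (0.05 and 0.07 in the fits that changed sign), 6.94 to 8.12 for Esrrb, −0.11 to 1.04 for Ppargc1b (−0.11 changing sign), −0.79 to −0.39 for Pprc1 and 7.41 to 7.85 for Nr0b1. Without ERRγ library 1, Nr0b1 did not pass the filter and was not tested. Fitted values of Esrrb, Nr0b1 and Nr0b2 depend on the prior count and are no bounds. On library totals alone, the log2 ratio of ERRγ library 2 over 1 was 3.14 for Esrrg and −0.01 for Esrra. Over all rows, 661 were called higher and 233 lower, 1271 and 738 with no filter, and 92 to 1597 and 7 to 1098 with 1 library left out. The cause was not tested, except that fewer libraries leave the spread to 1 pair.

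The list counts, tried after seeing the data, moved as follows. With no filter, 1 coactivator rose, 2 PGC-1 regulators rose and 1 fell, 4 mitochondrial biogenesis factors rose, and 1 SHP-related gene rose, as with limma-voom. With 1 library left out, rises ran from 0 to 1 for coactivators, 0 to 3 for PGC-1 regulators, 0 to 3 for biogenesis factors and 1 to 11 for textbook targets, and falls from 0 to 1 for PGC-1 regulators, biogenesis factors, SHP-related genes and textbook targets. The labels tie same-numbered libraries by number alone, and the correlation of their deviations over 12776 genes was 0.009. That value cannot show whether they shared a preparation. With the replicate number as a block the same 4 genes were called (Esrrg at 5.55, Esrrb at 7.69, Nr0b1 at 7.40, Nr0b2 at 10.87) and 1 PGC-1 regulator rose. Depth limits Ppargc1a, Esrrb and Nr0b1, with at most 34 counts in a library.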
